A study of Saccharomyces cerevisiae with 12 samples.

Results

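The Snf1 kinase complex of Saccharomyces cerevisiae and the enzymes that switch it on and off were followed as 8 genes, taken by their annotation. They were SNF1, SNF4, SIP1, SIP2, GAL83, REG1, SAK1 and TOS3. Each had 1 probe set on the array, so that 8 of the 8968 probe sets tested, or 8 of 5449 named genes, belonged to them. All 12 arrays measured RNA of the wild-type diploid strain BY4743, harvested in log phase from the glucose-rich medium YPD in high aspect ratio vessels (HARVs), which are rotating culture chambers filled without a gas phase. The study's relative glucose readings of the medium were lower at 5 than at 25 generations. At 5 generations the mean reading was lower in LSMMG cultures than in controls. At 25 generations the means were close, as far as the misprinted control value can be read. Whether these readings bear on the values below was not tested. The LSMMG groups, SMG 5 and SMG 25, were grown in low-shear modeled microgravity for 5 and 25 generations (n = 3 arrays each). The control groups, Ctrl 5 and Ctrl 25, were grown for the same numbers of generations in a HARV in the orientation that does not model microgravity (n = 3 arrays each). The sample titles give these generations, whereas the growth field of every sample names 5. The study's figure legend divides the control arrays unevenly between the times, and its methods leave out a control array that they do not name. The titles were followed here, and results that separate Ctrl 5 from Ctrl 25 rest on them. By the study's account the vessel lowers shear and averages the direction of gravity without removing its force. A single strain was used. Cultures were kept in log phase by serial dilution into fresh medium. The labels do not say whether the arrays of 25 generations continue the cultures of 5 generations. Nor do they say which replicates came from separate cultures, so the p-values measure the spread between these arrays.

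Snf1 is the yeast AMP-activated protein kinase. It is needed for growth on carbon sources other than glucose, because it releases the repression that glucose places on genes of respiration, gluconeogenesis and the use of other sugars. The kinase works as a complex of the catalytic subunit Snf1, the regulatory subunit Snf4, which relieves the autoinhibition of Snf1, and 1 of 3 scaffold subunits, Sip1, Sip2 and Gal83, which direct the complex to different places in the cell. Sak1, Tos3 and Elm1 are the kinases that phosphorylate the activation loop of Snf1, and Reg1 is the subunit that brings the protein phosphatase Glc7 to Snf1 to remove that phosphate when glucose is plentiful. Much of this control acts on the proteins, whereas the arrays measured only messenger RNA.

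Values below are the deposited ratios, in which 1 lies at the median of a probe set over the 12 arrays, so a ratio compares arrays for 1 gene and not the levels of different genes. Fold changes are differences of log2 ratios from limma, with p-values adjusted by the Benjamini-Hochberg method over all 8968 probe sets. A gene was called when its adjusted p was under 0.05. Because whole cultures were measured, fewer cells of a kind and less RNA per cell cannot be told apart. In hierarchical clustering divided into 3 branches, control replicates 1 and 2 of 5 generations formed a branch of their own, apart from the other 4 control arrays and from the 6 LSMMG arrays. Results that rest on these 2 arrays are therefore given with and without them.

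REG1 was the most up-regulated of the 8 genes, TOS3 was up-regulated by a smaller amount, and SAK1 was down-regulated, at both 5 and 25 generations. The genes of the complex itself, SNF1, SNF4, SIP1, SIP2 and GAL83, passed the test at neither time against all 6 control arrays. Thus 3 of the 8 genes were called at 5 generations, where 40.8% of all probe sets were called, and 3 of 8 at 25 generations, where the figure was 39.6%. Many probe sets of the array carry no gene name, and among the 5498 named ones, fitted and adjusted alone, 64.1% were called at 5 generations and 61.0% at 25 generations. In that fit 3 of the 8 genes were called at 5 generations and 4 at 25 generations, where SIP1 was added (adjusted p = 0.042). Only REG1 at 5 generations passed with a change of at least 2-fold, a limit that 14.4% of all probe sets passed at 5 generations and 13.2% at 25 generations, where none of the 8 genes did. The median log2 fold change of the 8 genes was 0.11 at 5 generations and -0.09 at 25 generations, against -0.001 and -0.01 over all probe sets and 0.13 and 0.15 over the named ones.

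**Figure D1:**
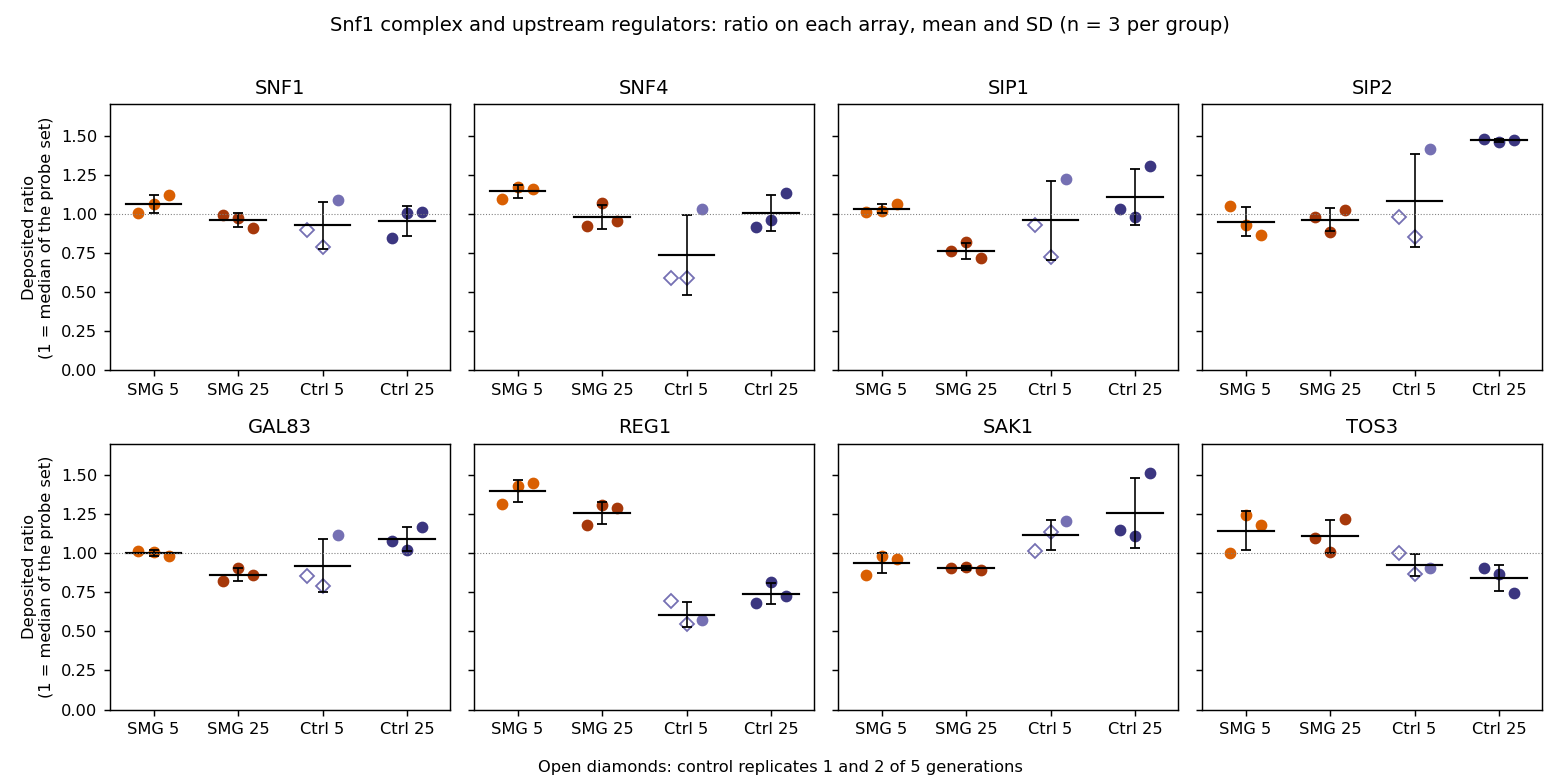
Deposited ratio (vertical axis, 1 at the median of the probe set) of the 8 genes on each of the 12 arrays, by group, with the mean and SD of each group (n = 3). Open diamonds are control replicates 1 and 2 of 5 generations. The LSMMG and control arrays do not overlap for REG1, SAK1 and TOS3, and overlap for the other 5 genes.

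Among the genes that turn the kinase off, REG1 (YDR028C) had ratios of 1.316, 1.429 and 1.448 in SMG 5 and 1.179, 1.308 and 1.292 in SMG 25, against 0.697, 0.547 and 0.573 in Ctrl 5 and 0.684, 0.818 and 0.723 in Ctrl 25. The lowest LSMMG array was thus well above the highest control array. The log2 fold change was 1.07 (SE 0.12, adjusted p = 3.2e-05) in SMG 5 and 0.91 (SE 0.12, adjusted p = 9.5e-05) in SMG 25, or 2.09-fold and 1.89-fold. The call held in all 23 alternative analyses at each time, with log2 fold changes of 1.01 to 1.21 at 5 generations and 0.77 to 0.97 at 25 generations.

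REG2 (YBR050C), the paralog of REG1, whose protein also binds Glc7, was not among the 8 genes and was set beside it. Its ratios were 1.165, 1.184 and 1.190 in SMG 5 and 1.172, 1.298 and 1.241 in SMG 25, against 0.801, 0.841 and 0.550 in Ctrl 5 and 0.589, 0.646 and 0.581 in Ctrl 25. REG2 was likewise higher on every LSMMG array than on every control array. Its log2 fold change was 0.84 (SE 0.13, adjusted p = 3.7e-04) in SMG 5 and 0.91 (SE 0.13, adjusted p = 2.2e-04) in SMG 25. GLC7, which encodes the catalytic phosphatase itself, had log2 fold changes of -0.17 (SE 0.16, adjusted p = 0.45) in both SMG 5 and SMG 25 and passed the test at neither time. Without control replicates 1 and 2 of 5 generations GLC7 was among the genes called lower at both times.

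Among the kinases that turn Snf1 on, SAK1 (YER129W), which encodes the main Snf1-activating kinase, had ratios of 0.863, 0.984 and 0.962 in SMG 5 and 0.906, 0.914 and 0.890 in SMG 25. In the controls its ratios were 1.013, 1.134 and 1.205 in Ctrl 5 and 1.151, 1.108 and 1.512 in Ctrl 25. All 6 LSMMG arrays lay below all 6 control arrays, and the highest LSMMG array and the lowest control array were close together. SAK1 fell by 0.33 (SE 0.11, adjusted p = 0.030) on the log2 scale in SMG 5 and by 0.38 (SE 0.11, adjusted p = 0.016) in SMG 25. Both changes were small, and each was lost in some subsets of the arrays. At 5 generations the adjusted p was 0.051 without Ctrl 5 replicate 3, 0.14, 0.052 and 0.066 without SMG 5 replicate 1, 2 and 3, and 0.14 against the controls of the same generation only. At 25 generations it was 0.05, just short of the threshold, without SMG 25 replicate 1 and 0.056 without SMG 25 replicate 3.

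TOS3 (YGL179C), another Snf1-activating kinase, moved in the opposite direction. Its ratios were 1.004, 1.246 and 1.180 in SMG 5 and 1.094, 1.005 and 1.221 in SMG 25, against 1.002, 0.868 and 0.903 in Ctrl 5 and 0.908, 0.866 and 0.745 in Ctrl 25. The 6 LSMMG arrays were above the 6 control arrays, but the lowest LSMMG value, 1.004, and the highest control value, 1.002, were almost equal. The log2 fold change was 0.37 (SE 0.11, adjusted p = 0.014) in SMG 5 and 0.33 (SE 0.11, adjusted p = 0.028) in SMG 25. At 5 generations the call was lost without SMG 5 replicate 2 (adjusted p = 0.076), without SMG 5 replicate 3 (adjusted p = 0.060), and against the controls of the same generation (adjusted p = 0.074). At 25 generations it was lost without SMG 25 replicate 1 (adjusted p = 0.074) and without SMG 25 replicate 3 (adjusted p = 0.14). By the methods' t-test TOS3 passed at neither time (adjusted p = 0.074 in SMG 5 and 0.069 in SMG 25). Separation of all 6 LSMMG arrays from all 6 control arrays, which REG1, SAK1 and TOS3 showed among the 8 genes, was found for 29.2% of all probe sets. Taken by time, 38.0% of probe sets had all SMG 5 arrays beyond the controls and 37.4% had all SMG 25 arrays beyond them, and the same 3 of the 8 genes did so at each time.

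ELM1 (YKL048C), the remaining Snf1-activating kinase, which also acts in bud morphogenesis, had log2 fold changes of 0.11 (SE 0.12, adjusted p = 0.52) in SMG 5 and 0.18 (SE 0.12, adjusted p = 0.27) in SMG 25. Its mean ratio was 0.986 ± 0.032 in SMG 5 and 1.03 ± 0.025 in SMG 25, against 1.03 ± 0.137 in Ctrl 5 and 0.822 ± 0.045 in Ctrl 25 (SD, n = 3 each). Without control replicates 1 and 2 of 5 generations ELM1 was called higher, by 0.24 (adjusted p = 0.014) in SMG 5 and by 0.31 (adjusted p = 0.0033) in SMG 25.

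SNF1 (YDR477W), the catalytic subunit, varied little. Its ratios were 1.006, 1.065 and 1.121 in SMG 5 and 0.992, 0.976 and 0.907 in SMG 25, against 0.90, 0.789 and 1.088 in Ctrl 5 and 0.844, 1.005 and 1.015 in Ctrl 25. The LSMMG and control arrays overlapped at both times. The log2 fold change was 0.19 (95% interval -0.04 to 0.41, adjusted p = 0.18) in SMG 5 and 0.04 (95% interval -0.19 to 0.26, adjusted p = 0.82) in SMG 25, so that the intervals reached no 2-fold change in either direction. SNF1 passed the test in none of the 23 alternatives at either time.

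SNF4 (YGL115W), the regulatory subunit, differed mainly among the control arrays. Its ratios were 1.094, 1.175 and 1.161 in SMG 5 and 0.920, 1.069 and 0.952 in SMG 25. The controls had 0.588, 0.591 and 1.031 in Ctrl 5 and 0.915, 0.961 and 1.135 in Ctrl 25, so the 2 low values were those of control replicates 1 and 2 of 5 generations. The log2 fold change was 0.44 (SE 0.20, adjusted p = 0.11) in SMG 5 and 0.22 (SE 0.20, adjusted p = 0.44) in SMG 25. Without these 2 arrays it was 0.18 (adjusted p = 0.12) in SMG 5 and -0.04 (adjusted p = 0.73) in SMG 25. Against Ctrl 5 alone, where they make up most of the group, SMG 5 was called higher by 0.69 (adjusted p = 0.016).

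The 3 scaffold genes did not pass the main test against all 6 control arrays, but each was called in some alternatives. In SMG 25 all 3 were called lower without control replicates 1 and 2 of 5 generations, and without replicate 2 alone. Leaving out replicate 1 alone gave none of these calls. With array weights, and against controls of the same generation, they were also called lower in SMG 25. SIP2 (YGL208W), whose protein is found mainly in the cytoplasm, had ratios of 1.051, 0.929 and 0.868 in SMG 5 and 0.979, 0.885 and 1.026 in SMG 25. Its ratios were 0.982, 0.849 and 1.418 in Ctrl 5 and 1.479, 1.459 and 1.474 in Ctrl 25. Thus 4 control arrays lay between 1.418 and 1.479, above every LSMMG array, and the other 2 lay within the range of the LSMMG arrays or just below it. Against all 6 control arrays SIP2 had log2 fold changes of -0.40 (SE 0.18, adjusted p = 0.10) in SMG 5 and -0.38 (SE 0.18, adjusted p = 0.13) in SMG 25. Against the other 4 it was called lower, by -0.62 (SE 0.09, adjusted p = 8.3e-05) in SMG 5 and by -0.60 (SE 0.09, adjusted p = 1.2e-04) in SMG 25.

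SIP1 (YDR422C), which encodes the scaffold that can take the complex to the vacuole, had ratios of 1.014, 1.020 and 1.064 in SMG 5 and 0.760, 0.818 and 0.717 in SMG 25, against 0.932, 0.722 and 1.221 in Ctrl 5 and 1.031, 0.977 and 1.309 in Ctrl 25. The SMG 25 arrays were all below the SMG 5 arrays. Its log2 fold change was 0.03 (SE 0.16, adjusted p = 0.92) in SMG 5 and -0.41 (SE 0.16, adjusted p = 0.055) in SMG 25. Without control replicates 1 and 2 of 5 generations it was -0.13 (adjusted p = 0.36) in SMG 5, and SIP1 was called lower by -0.56 (adjusted p = 9.6e-04) in SMG 25. With all arrays kept, SIP1 was also called lower in SMG 25 by quantile normalization, by the trended prior and among the named probe sets alone.

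GAL83 (YER027C), whose protein takes the complex to the nucleus when glucose runs low, had ratios of 1.015, 1.010 and 0.982 in SMG 5 and 0.823, 0.906 and 0.858 in SMG 25, against 0.853, 0.793 and 1.115 in Ctrl 5 and 1.079, 1.018 and 1.169 in Ctrl 25. It had the same order of groups as SIP1, with SMG 25 below SMG 5 and Ctrl 25 highest. The log2 fold change was 0.01 (SE 0.12, adjusted p = 0.96) in SMG 5 and -0.21 (SE 0.12, adjusted p = 0.20) in SMG 25. Without the 2 arrays it was -0.13 (adjusted p = 0.18) in SMG 5, and GAL83 was called lower by -0.34 (adjusted p = 0.0021) in SMG 25. In all, 4 of the 8 genes were then called at 5 generations, where 52.9% of all probe sets were, and 6 of 8 at 25 generations, where 53.0% were. Against the controls of the same generation 2 of the 8 genes, REG1 and SNF4, were called higher at 5 generations, where 33.5% of all probe sets were called. At 25 generations the same 6 genes were called as without the 2 arrays, with 46.0% of all probe sets called.

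**Figure D2:**
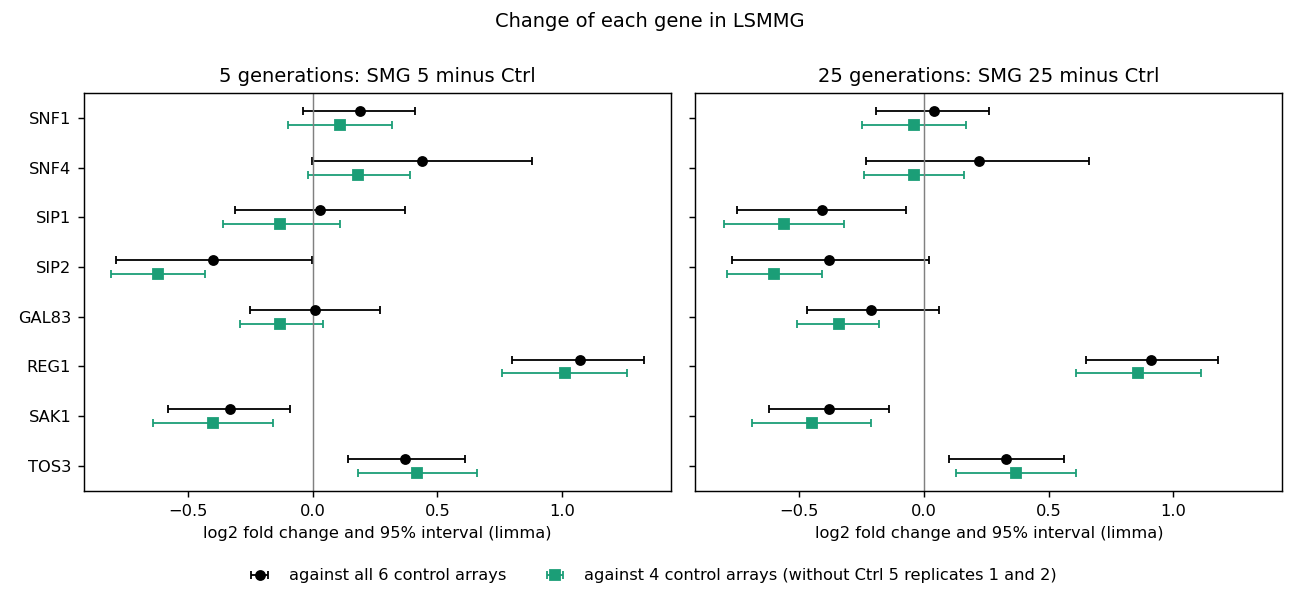
Log2 fold change and 95% interval of the 8 genes in SMG 5 and SMG 25 (panels), against all 6 control arrays (black circles) and against the 4 control arrays other than replicates 1 and 2 of 5 generations (green squares). The intervals of REG1, SAK1 and TOS3 exclude 0 in both, and those of SIP2 narrow around -0.62 and -0.60 against the 4 arrays.

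For the comparison of long with short growth in LSMMG, SMG 25 was set against SMG 5, and none of the 8 genes was called, against 1.71% of all probe sets (limma; 1 of the 8 had an unadjusted p under 0.05). The unadjusted value belonged to SIP1, at -0.43 on the log2 scale (SE 0.18, adjusted p = 0.34). With the spread estimated without control replicates 1 and 2 of 5 generations the same fold change passed (adjusted p = 0.047), and 6.77% of all probe sets did. REG1 had -0.15 (95% interval -0.45 to 0.15, adjusted p = 0.79), so its level in SMG 25 could not be told from that in SMG 5.

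Growth time in the control vessel, Ctrl 25 against Ctrl 5, gave no call among the 8 genes either, against 0.134% of all probe sets (limma; 3 of the 8 had an unadjusted p under 0.05). Those were SNF4, with 0.49 (SE 0.19, adjusted p = 0.15), SIP2, with 0.48 (SE 0.16, adjusted p = 0.12), and REG1, with 0.30 (SE 0.11, adjusted p = 0.14). Leaving out Ctrl 5 replicate 3, which leaves the 2 arrays that stood apart to represent Ctrl 5, changed this result. SNF4 (0.76, adjusted p = 4.5e-04), SIP2 (0.69, adjusted p = 8.2e-04), GAL83 (0.40, adjusted p = 0.0063) and SIP1 (0.42, adjusted p = 0.043) were then called higher in Ctrl 25, with 31.7% of all probe sets called.

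Whether the effect of LSMMG differed between 25 and 5 generations was tested with an interaction term against the controls of each generation. None of the 8 genes passed, against 0.167% of all probe sets (limma; 4 of the 8 had an unadjusted p under 0.05). Those 4 were SNF4 (-0.72, adjusted p = 0.26), SIP1 (-0.66, adjusted p = 0.25), GAL83 (-0.47, adjusted p = 0.24) and REG1 (-0.45, adjusted p = 0.23). Without Ctrl 5 replicate 3, SNF4, SIP1, SIP2 and GAL83 passed, with 18.8% of all probe sets called. Without the other 2 arrays of Ctrl 5 none of the 8 genes did.

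Genes whose products can stand in for one another, or act together, were compared within each array as the difference of their log2 ratios, over 6 LSMMG and 6 control arrays. There were 6 such pairs, tested by an exact two-sided permutation test whose smallest possible p is 0.0022. The test takes the 6 arrays of a condition as independent, which the labels do not settle. For the kinases SAK1 minus TOS3 the difference was -0.22, -0.34 and -0.29 in SMG 5 and -0.27, -0.14 and -0.46 in SMG 25, against 0.02, 0.39 and 0.42 in Ctrl 5 and 0.34, 0.36 and 1.02 in Ctrl 25. It was negative on every LSMMG array and positive on every control array. The means were -0.29 ± 0.11 in LSMMG and 0.42 ± 0.33 in Ctrl (SD, n = 6 each), a difference of -0.71 (exact permutation p = 0.0022, adjusted over the 6 pairs 0.013). Because SAK1 alone was lower and TOS3 alone higher on every LSMMG array, this p could only be the smallest possible. It adds nothing to the separation already given for each gene.

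The scaffold pair SIP2 minus GAL83 averaged 0.04 ± 0.18 in LSMMG and 0.33 ± 0.16 in Ctrl, a difference of -0.29 (exact permutation p = 0.019, adjusted 0.058). It passed without control replicates 1 and 2 of 5 generations, at -0.38 (exact permutation, adjusted p = 0.029). SNF1 minus SNF4 differed by -0.22, SIP1 minus SIP2 by 0.20 and SIP1 minus GAL83 by -0.09 (exact permutation, adjusted p = 0.30 each), within the spread of the arrays. REG1 minus REG2 averaged 0.13 ± 0.13 in LSMMG and 0.02 ± 0.37 in Ctrl, a difference of 0.12 (exact permutation, adjusted p = 0.53).

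The difference had opposite signs at the 2 times. Within 5 generations REG1 minus REG2 averaged 0.24 ± 0.06 in SMG 5 and -0.25 ± 0.34 in Ctrl 5, a difference of 0.50, and within 25 generations it averaged 0.03 ± 0.03 in SMG 25 and 0.29 ± 0.07 in Ctrl 25, a difference of -0.26 (SD, n = 3 each). The LSMMG and control arrays did not overlap at either time, and the change between the times was not tested. The size at 5 generations rested mainly on control replicates 1 and 2, which had -0.20 and -0.62. Ctrl 5 replicate 3 had 0.06, nearer to the SMG 5 arrays at 0.18, 0.27 and 0.28. With 3 arrays against 3 the exact permutation test cannot go below p = 0.1, unadjusted. That value was reached at both times by REG1 minus REG2, by SAK1 minus TOS3 (-0.56 within 5 and -0.86 within 25 generations) and by SIP2 minus GAL83 (-0.30 and -0.28), and at 1 time by SNF1 minus SNF4, SIP1 minus SIP2 and SIP1 minus GAL83. For SAK1 minus TOS3 it again followed from the separation of each gene.

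**Figure D3:**
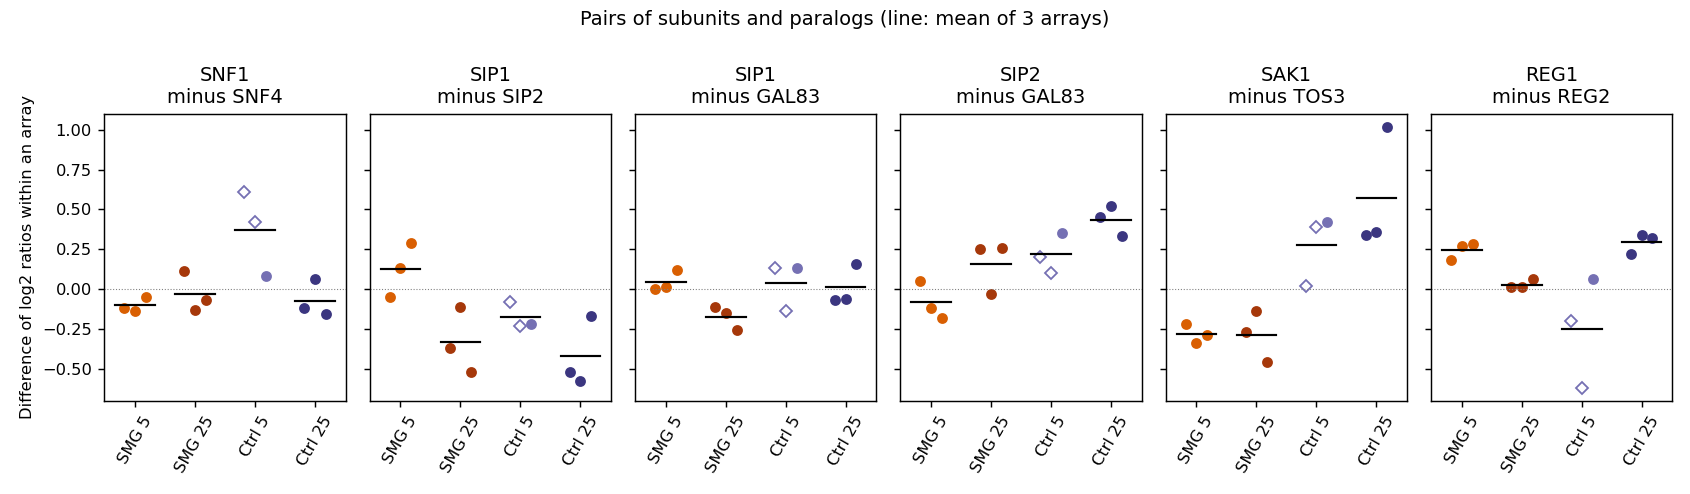
Difference of the log2 ratios of 2 genes within each array (vertical axis) for the 6 pairs, by group, with the mean of the 3 arrays as a line and control replicates 1 and 2 of 5 generations as open diamonds. SAK1 minus TOS3 lies below 0 on all 6 LSMMG arrays and above 0 on all 6 control arrays.

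Over the 12 arrays the log2 ratios of the 8 genes varied together in some pairs, given here as Pearson correlations without a test, since the arrays share their groups and scaling. SIP1 and GAL83 had an r of 0.924, REG1 and TOS3 0.779, and SNF1 and SNF4 0.776. SAK1 ran against TOS3 (r = -0.811) and against REG1 (r = -0.739). SNF1 and SAK1 had an r of -0.057.

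The genes most like each of the 8 over the 12 arrays were taken from 5490 named probe sets. REG1 was most like YPL247C (r = 0.984) and TPK2, a catalytic subunit of protein kinase A (r = 0.982), and 302 probe sets had an r of at least 0.9 with it. SAK1 was most like RPL36A, a ribosomal protein gene (r = 0.952), and RET1, a subunit of RNA polymerase III (r = 0.941), with 79 probe sets at that level. SIP2 was most like PPH22, a catalytic subunit of protein phosphatase 2A, and RNH70, an exonuclease (both r = 0.951), with 70 such probe sets. For the other 5 genes 7 or fewer probe sets reached 0.9. SNF4 was most like LDB17 (r = 0.963) and PHO8, the vacuolar alkaline phosphatase (r = 0.945), and without control replicates 1 and 2 of 5 generations these fell to 0.88 and 0.486. SIP1 was most like PBA1 (r = 0.928) and WHI3 (r = 0.915), GAL83 like APM2 (r = 0.934) and DIF1 (r = 0.932), and TOS3 like SEC9 (r = 0.911) and APA2 (r = 0.909). SNF1 was most like RPL36B (r = 0.89) and RTG2 (r = 0.843), below 0.9 in both.

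Other genes around the kinase were grouped in 4 lists, of which all 58 genes were measured, and were read against the array, where 22.5% of probe sets were called higher and 18.3% lower in SMG 5, and 21.7% higher and 17.9% lower in SMG 25. Among the named probe sets alone 36.3% were higher and 27.8% lower in SMG 5, and 34.7% higher and 26.3% lower in SMG 25. The first list held 12 other genes of Snf1 regulation and glucose sensing. Of these, 6 were higher and none lower in SMG 5, and 5 were higher and 1 lower in SMG 25. The median log2 fold change of the list was 0.27 in SMG 5 and 0.21 in SMG 25. MTH1, which with its paralog STD1 acts in glucose sensing, had the largest change. Its ratios were 4.473, 4.349 and 4.320 in SMG 5 and 2.201, 2.362 and 1.335 in SMG 25, against 0.673, 0.631 and 0.140 in Ctrl 5 and 0.205, 0.296 and 0.196 in Ctrl 25. Every LSMMG array was above every control array, and the log2 fold change was 3.88 (SE 0.46, adjusted p = 4.4e-05) in SMG 5 and 2.68 (SE 0.46, adjusted p = 6.1e-04) in SMG 25.

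STD1, whose protein binds and promotes the activity of Snf1, was up-regulated by 0.75 (adjusted p = 1.6e-04) in SMG 5 and had 0.24 (adjusted p = 0.097) in SMG 25. SIP5, whose protein binds both Snf1 and Reg1, was up-regulated by 1.72 (adjusted p = 1.4e-04) in SMG 5 and by 1.11 (adjusted p = 0.0026) in SMG 25. BMH2, a 14-3-3 protein, and SIT4, a protein phosphatase, were also called higher at both times, by 0.56 and 0.41 in SMG 5 and by 0.43 and 0.46 in SMG 25. The SIT4 call was lost in SMG 5 without any 1 of the 3 SMG 5 arrays and with quantile normalization, and without SMG 25 replicate 1 or 2 and against the controls of the same generation in SMG 25. UBP8, a ubiquitin protease of the SAGA complex, was the gene called lower in SMG 25, by -0.28 (adjusted p = 0.037), a call lost in 10 of 23 alternatives. It was lost without control replicates 1 and 2 of 5 generations (adjusted p = 0.060), where GLC7 was the gene called lower, and against the controls of the same generation (adjusted p = 0.15), where BMH1 was. HXK2, the hexokinase that takes part in glucose repression, had log2 fold changes of 0.14 (adjusted p = 0.50) in SMG 5 and 0.06 (adjusted p = 0.79) in SMG 25.

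Of the 14 genes for transcription factors and the corepressor of the glucose repression branch, 9 were higher and 3 lower in SMG 5, with a median of 0.93, and 7 were higher and 3 lower in SMG 25, with a median of 0.64. The genes called higher at both times encoded repressors (MIG1, MIG2, MIG3, NRG1 and NRG2) as well as the activator SIP4 and the heat shock factor HSF1. MIG1, the main glucose repressor and a substrate of Snf1, was higher by 0.88 (adjusted p = 7.5e-04) in SMG 5 and by 0.49 (adjusted p = 0.024) in SMG 25. In SMG 25 the MIG1 call was lost against the controls of the same generation (adjusted p = 0.096), by the methods' t-test (adjusted p = 0.055), and without SMG 25 replicate 1 (adjusted p = 0.12) or 2 (adjusted p = 0.074). MIG2 was higher by 2.23 (SE 0.21, adjusted p = 1.0e-05) in SMG 5 and by 1.38 (SE 0.21, adjusted p = 3.1e-04) in SMG 25, and NRG2 by 1.68 (adjusted p = 6.7e-05) and 1.56 (adjusted p = 1.1e-04). HSF1 was higher by 0.98 (adjusted p = 2.9e-04) in SMG 5 and by 0.78 (adjusted p = 0.0014) in SMG 25. Both subunits of the corepressor that Mig1 recruits had lower values. CYC8 fell by 0.57 (adjusted p = 2.6e-04) in SMG 5 and by 0.54 (adjusted p = 3.8e-04) in SMG 25, and TUP1 fell by 0.51 (adjusted p = 0.038) in SMG 5 and had -0.44 (adjusted p = 0.068) in SMG 25. The TUP1 call in SMG 5 was lost in 12 of 23 alternatives, including the removal of each array other than Ctrl 5 replicate 2, and without control replicates 1 and 2 of 5 generations TUP1 was called lower at both times. MSN2, the general stress activator, was called lower at both times, by -0.30 (adjusted p = 0.026) and -0.39 (adjusted p = 0.0068), a call lost in SMG 5 by the methods' t-test (adjusted p = 0.15), without SMG 5 replicate 1 (adjusted p = 0.16) and against the controls of the same generation (adjusted p = 0.095). RDS2 was called lower in SMG 25 by -0.30 (adjusted p = 0.039), which was lost in 9 of 23 alternatives, among them those without control replicates 1 and 2 of 5 generations (adjusted p = 0.058) and against the controls of the same generation (adjusted p = 0.15). Against the controls of the same generation CYC8 was the gene of this list called lower in SMG 5.

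In the yeast genome MIG2 lies next to SIP2 on chromosome VII and MIG3 next to GAL83 on chromosome V, which was noticed after their values were seen. MIG3 had ratios of 1.328, 1.379 and 1.348 in SMG 5 and 1.379, 1.411 and 1.240 in SMG 25, against 0.329, 0.308 and 0.763 in Ctrl 5 and 0.643, 0.503 and 0.661 in Ctrl 25. Its log2 fold change was 1.42 (SE 0.26, adjusted p = 0.0010) in SMG 5 and 1.41 (SE 0.26, adjusted p = 0.0011) in SMG 25. Both repressor genes were thus higher in LSMMG at both times, while the scaffold genes beside them had log2 fold changes between -0.40 and 0.01 and were not called against all 6 control arrays. A neighbour called higher was not particular to these places. SIP1, the remaining scaffold gene, lies between ARO80 and CAD1, which were also called higher at both times. SPT16, on the other side of SIP2, and CHO1, on the other side of GAL83, were called at neither time.

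Of the 26 glucose-repressed genes that depend on Snf1, 21 were higher and none lower in SMG 5, with a median log2 fold change of 1.24, and 13 were higher and none lower in SMG 25, with a median of 1.02. The 5 that did not pass in SMG 5, ADY2, SFC1, HXT2, PCK1 and YAT1, had log2 fold changes between -0.05 and 1.24. CAT2, the carnitine acetyltransferase, was higher by 2.19 (adjusted p = 2.2e-04) in SMG 5 and by 2.32 (adjusted p = 1.5e-04) in SMG 25, and POT1, the peroxisomal thiolase, by 1.78 (adjusted p = 2.9e-04) and 1.91 (adjusted p = 1.8e-04). ACS1, the acetyl-CoA synthetase used without glucose, was higher by 1.48 (adjusted p = 1.3e-04) in SMG 5 and by 0.89 (adjusted p = 0.0041) in SMG 25.

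SUC2, the invertase, was the gene of this list called between SMG 25 and SMG 5, and the interaction term, which sets this against the controls, was -0.89 (adjusted p = 0.13). With quantile normalization, and without control replicates 1 and 2 of 5 generations, ACS1 and MDH2 were called lower in SMG 25 than in SMG 5 as well. The ratios of SUC2 were 2.124, 1.978 and 2.002 in SMG 5 and 1.047, 1.197 and 0.923 in SMG 25, against 0.923, 0.710 and 1.041 in Ctrl 5 and 0.796, 0.782 and 0.953 in Ctrl 25. The SMG 25 arrays overlapped the controls, whereas the SMG 5 arrays did not. Control replicates 1 and 2 of 5 generations moved the counts of this list, as they moved those of all probe sets. Without them 24 of the 26 genes were higher in SMG 5 and 23 in SMG 25, and against the controls of the same generation 17 were higher in SMG 5 and 21 in SMG 25. Of all 8968 probe sets, 2641 in SMG 5 and 2651 in SMG 25 were higher without them. Against the controls of the same generation 1564 and 2342 were. No gene of the list was called lower in LSMMG in any of these analyses.

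Of 6 other proteins that Snf1 phosphorylates, 2 genes were higher and 1 lower in SMG 5, with a median of -0.09, and 2 were higher and none lower in SMG 25, with a median of -0.04. ROD1, an adaptor for the endocytosis of transporters, was higher by 1.01 (adjusted p = 6.1e-04) in SMG 5 and by 0.93 (adjusted p = 0.0011) in SMG 25, and PIB2 by 0.48 (adjusted p = 0.0073) and 0.36 (adjusted p = 0.034), of which the second was lost in 7 of 23 alternatives, without any 1 of the SMG 25 and Ctrl 25 arrays or Ctrl 5 replicate 3. ACC1, the acetyl-CoA carboxylase that Snf1 inhibits, had ratios of 0.592, 0.698 and 0.519 in SMG 5 and 1.054, 0.951 and 1.124 in SMG 25, against 0.903, 0.854 and 1.118 in Ctrl 5 and 1.219, 1.052 and 1.119 in Ctrl 25. The 3 SMG 5 arrays were lower than all other arrays. ACC1 fell by 0.79 (SE 0.13, adjusted p = 4.6e-04) on the log2 scale in SMG 5 and had 0.01 (SE 0.13, adjusted p = 0.98) in SMG 25, and SMG 25 was higher than SMG 5 by 0.80 (SE 0.15, adjusted p = 0.031). Against the controls the corresponding interaction term was 0.55 (adjusted p = 0.23) and did not pass.

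**Figure D4:**
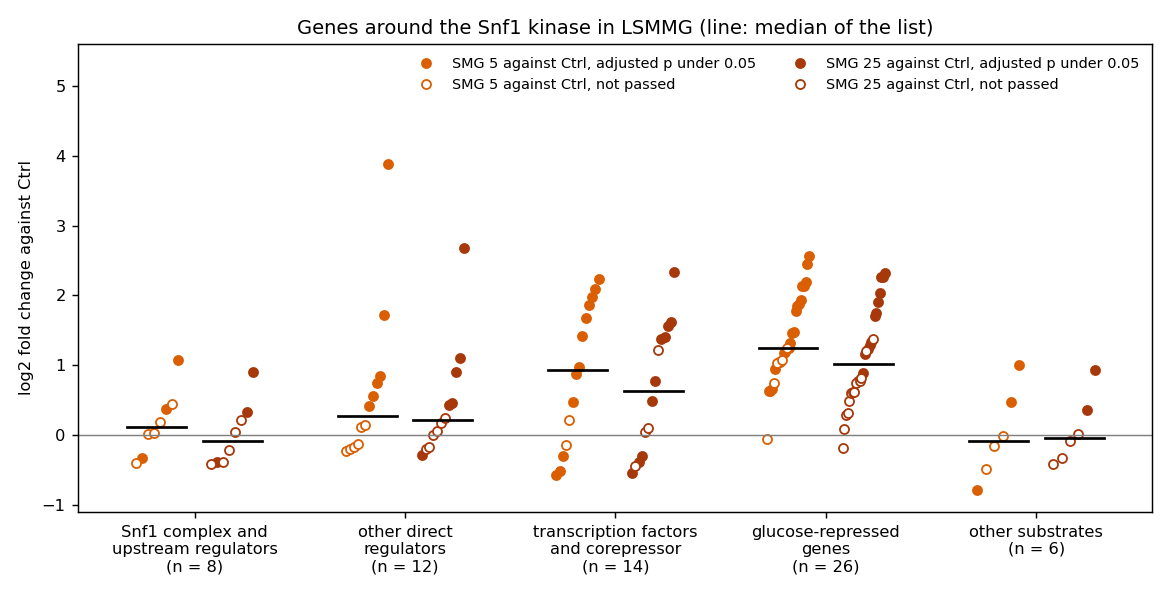
Log2 fold change against Ctrl (vertical axis) of every gene of the complex and its regulators (n = 8) and of the 4 lists around it (n = 12, 14, 26 and 6), in SMG 5 and SMG 25. Filled circles passed the test, open circles did not, and lines are medians. The 8 genes have medians of 0.11 and -0.09, and the glucose-repressed genes have medians of 1.24 and 1.02.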

How the data were processed

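RNA of the 12 samples was hybridised to Affymetrix Yeast Genome 2.0 arrays. The authors normalized the arrays by RMA and analysed them in GeneSpring; the deposited values are linear ratios with a median of 1 on each array and close to 1 for each probe set. How these ratios were scaled is not given in the sources used here, and a ratio carries no signal intensity, so no filter on dim probe sets could be applied. Of 10928 probe sets, 1746 for Schizosaccharomyces pombe, 166 array controls, 47 reporter sequences and 1 with several symbols were left out. Of the 8968 tested, 5498 had 1 S. cerevisiae gene in the platform annotation. Log2 ratios were fitted with limma 3.58.1 (R 4.3.3) with the groups Ctrl (n = 6), SMG 5 and SMG 25, and with 4 groups for the control times and the interaction; the call threshold was 0.05 after Benjamini-Hochberg adjustment. The limma comparison of SMG 5 with Ctrl was tested on simulated data with independent noise and no arrays standing apart. The other comparisons and the pair tests were not tested in this way. The number of arrays limits the precision.

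The members and gene lists were chosen with earlier results of these data known. Beside the 8 genes, REG2 and ELM1, up to 4 genes of each list with the largest moderated statistic, and the 2 genes most like each member were named; BMH2, SIT4, UBP8, GLC7, HXK2, MIG1, MIG3, TUP1, MSN2 and RDS2, and genes given only by symbol, were chosen after their values were seen. Replicate numbers were not treated as pairs. Alternatives were the methods' t-test, centring, quantile normalization, a trended prior, array weights, other probe sets, same-generation controls, a replicate block and leaving out arrays; keeping the reporter probe sets, and leaving out the 2 control arrays in the time, pair and list results, were added after seeing the data. Promoter sequences were not used here.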

Additional observations from a re-analysis of the deposited data

Results flagged for a closer look

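For 2 of the 34 genes named with values, 1 control array lay far from the other 5, and both times it was control replicate 2 of 5 generations; chance alone sets about 1 group in 20 apart by this measure. GLC7 had a ratio of 0.704 there and MIG1 had 0.57. None of the 8 genes of the complex and its regulators had a control array set apart in this way. The measure looks for 1 array alone, so it can miss 2 arrays that lie apart together. Control replicates 1 and 2 of 5 generations did so most widely for SNF4 and SIP2. For GAL83 they had 0.853 and 0.793, against 1.02 to 1.17 on the other control arrays. For SIP1 they were also the 2 lowest control arrays. Among the pair differences, SNF1 minus SNF4 on SMG 25 replicate 1, at 0.11, lay apart from the other 5 LSMMG arrays. REG1 minus REG2 was higher on every SMG 5 array than on every Ctrl 5 array, by 0.50, and lower on every SMG 25 array than on every Ctrl 25 array, by -0.26 on average. In Ctrl 5 it was -0.20 and -0.62 on replicates 1 and 2, the arrays that stood apart, and 0.06 on replicate 3. The difference between the times was not tested.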

How the results depend on the processing

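REG1 kept its direction and its call at both times under every alternative run, and SAK1 and TOS3 kept their direction. Leaving out 1 array gave 1 to 4 called members in SMG 5, 1 to 6 in SMG 25, 0 between SMG 25 and SMG 5, 0 to 4 between Ctrl 25 and Ctrl 5, 0 to 4 for the interaction, and 1 to 2 of the pairs. Of all 8968 probe sets it called 2921 to 4237 in SMG 5 and 2841 to 4173 in SMG 25. It called up to 219 between SMG 25 and SMG 5, up to 2846 between the control times and up to 1682 for the interaction. Array weights gave 5 called members in SMG 5, 6 in SMG 25, 1 between SMG 25 and SMG 5, 3 between the control times and 4 for the interaction. Of all 8968 probe sets, array weights called 4987, 4843, 1696, 3389 and 2676 in the same order. The count of members in SMG 25 was also 6 with controls of the same generation and 6 without control replicates 1 and 2 of 5 generations. Those analyses called 4122 and 4749 of all probe sets. Quantile normalization and the trended prior each gave 4 in SMG 25, adding SIP1, with 3785 and 3577 of all probe sets called. A minimum of 2-fold left 1 in SMG 5 and 0 in SMG 25. Between SMG 25 and SMG 5, quantile normalization gave 1 call, as did leaving out those 2 control arrays, with 788 and 607 of all probe sets called. The pairs gave 2 calls without them, and 0 within 5 and 0 within 25 generations, where 3 arrays against 3 cannot pass. By the methods' t-test TOS3 lost its call (adjusted p = 0.074 in SMG 5 and 0.069 in SMG 25).

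Of 18 same-numbered pairs of arrays, 5 had a correlation of deviations over 0.1 (lowest -0.278, highest 0.490), as had 10 of 36 other pairs. These counts pool all combinations of groups, and pairing within a single combination, such as SMG 5 with SMG 25, was not tested. With a replicate block the counts of members stayed at 3 in SMG 5 and 3 in SMG 25, and 0 pairs passed after adjustment. SAK1 minus TOS3 kept its size there (-0.71) and reached 0.031, the smallest p that this exact sign-flip test of 6 differences can give (adjusted p = 0.094), so the lost call says nothing of a weaker effect. Reaching that smallest p also followed from the separation of SAK1 and of TOS3, each on its own.

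In the lists, leaving out the 2 control arrays gave 2 regulators lower in SMG 5 and 23 glucose-repressed genes higher in SMG 25. Of all 8968 probe sets, 2105 were then lower in SMG 5 and 2651 higher in SMG 25. Controls of the same generation gave 1 transcription factor lower in SMG 5, 2 substrates lower in SMG 5 and 21 glucose-repressed genes higher in SMG 25, and quantile normalization 1 substrate lower in SMG 25. With controls of the same generation 1437 of all probe sets were lower in SMG 5 and 2342 higher in SMG 25. With quantile normalization 1808 were lower in SMG 25.

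Changes of sign were confined to values that had not passed. Without the 2 control arrays, SMG 5 values turned to -0.13 for SIP1, -0.13 for GAL83 and -0.03 for HXK2, SMG 25 values to -0.04 for SNF1, -0.04 for SNF4, -0.11 for ACC1 and -0.12 for HXK2, Ctrl 25 against Ctrl 5 to -0.19 for SNF1, -0.04 for SNF4, -0.16 for SIP1 and -0.04 for GAL83, the interaction of SNF1 to 0.04, and REG1 minus REG2 to -0.10. Array weights gave -0.04 (SIP1) and -0.09 (GAL83) in SMG 5 and -0.12 (ACC1) and -0.06 (HXK2) in SMG 25. Controls of the same generation gave -0.05 for ELM1 in SMG 5 and -0.03, -0.12 and -0.14 for SNF4, ACC1 and HXK2 in SMG 25. Centring gave -0.0025 for ACC1 in SMG 25, and quantile normalization -0.0023 for the interaction of TOS3. Within 5 generations SIP1 minus GAL83 was 0.0017; within 25 generations SNF1 minus SNF4 was 0.04 and REG1 minus REG2 -0.26. Leaving out single arrays gave -0.07 to 0.10 for SIP1 and -0.05 to 0.06 for GAL83 in SMG 5, -0.01 to 0.08 for SNF1, -0.05 to 0.07 for ACC1 and -0.04 to 0.12 for HXK2 in SMG 25, -0.04 to 0.10 for SIP2 and -0.14 to 0.02 for TOS3 between SMG 25 and SMG 5, -0.06 to 0.17 for SNF1 between the control times, and -0.01 to 0.18 for REG1 minus REG2. The cause was not tested. Over all named genes, comparisons and pairs, 2017 values kept direction and side of the threshold, 69 lost and 59 gained a call, and 41 changed sign.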
